A study of Drosophila melanogaster with 2 samples.

Results

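The genes described here are the 52 protein-coding genes of Drosophila melanogaster whose symbols begin with eIF or eEF, the translation initiation and elongation factors, out of 13945 protein-coding genes on the chromosome arms that were analysed. Members were taken by the start of the symbol, with no measured value in the rule: 44 are initiation factor (eIF) genes and 8 are elongation factor (eEF) genes. The data are chromatin immunoprecipitation sequencing of whole embryos aged 0 to 12 hours, both sexes pooled, from a transgenic line that stably expresses E(spl)m5-HLH with GFP at its C terminus. There was 1 group of 2 biological replicates, numbered 3 and 4, and no untagged line or other genotype was used here. The assay and antibody fields describe an immunoprecipitation while a free-text field of both samples names an input control, a conflict that could not be settled from the lists, so everything below is read as binding on the first of these readings.

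The tagged protein belongs to the basic helix-loop-helix repressors of the Enhancer of split complex, which act downstream of Notch and hold back neural fate. Initiation factors bring the initiator methionyl-tRNA, the small ribosomal subunit and the capped mRNA together and choose the start codon; elongation factors then deliver aminoacyl-tRNAs and move the ribosome along the message. Translation takes place in nearly all cells, but the genes were taken by symbol, and the expression of each gene in embryos was not tested. The counts below may therefore mix broadly used genes with genes used in few cells. The relation of these genes to Notch signalling was not a question stated by the study. Whole embryos mix many cell types, so a peak seen in few cells and a weak peak seen in many cannot be told apart.

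Of the 52 genes, 13 (25%) had a summit of the authors' thresholded peak list within 1 kb of an annotated start site, and are called bound here. Over all protein-coding genes the share was 11.9% (1653 genes). The thresholded list holds the 2487 peaks kept by the authors' procedure for reproducibility between replicates. It equals the 2487 pooled candidates of highest signal, so a peak in it need not be matched in both replicates, as at eIF4EHP. Elongation factor genes were bound at 4 of 8 and initiation factor genes at 9 of 44 (20.5%). With peaks of any strength among the 30000 pooled candidates, 37 of the 52 genes (71.2%) had a summit within 1 kb, against 57.5% of all genes. These are counts over a list chosen with earlier results of the same data known, 1 group of 2 replicates allows no test between groups, and no test of the list was made.

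The bound genes ranked high within the list. Their strongest summits had a median pooled signal of 240.7, against 162.5 over all 1653 bound genes, and a median rank of 554 against 1232; the signal is each peak's value in the authors' file, and the sources used here do not give its scale. The highest of them was the peak near eIF2Bbeta, at rank 7 of the pooled list. Its summit was 687 bp from that gene and 32 bp from the start of the neighbouring gene Ugalt. The site is printed here in 61 bases with the summit base in capitals.
eIF2Bbeta, chrX:2703854-2703914 (dm6), plus strand: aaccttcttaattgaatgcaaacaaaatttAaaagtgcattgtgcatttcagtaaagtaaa

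Several summits lay close to TATCGATA, the site of DREF, a transcription factor of many broadly used fly promoters. It was found within 100 bp of the strongest summit of 4 of the 13 bound genes (30.8%), against 6.29% of all 1653 bound genes. In these shares a summit near several genes counts for each gene. Counted once per summit, 2.77% of all 2487 thresholded summits had it. Counting every thresholded summit of a gene, 5 of 13 (38.5%) had it, against 6.59% of all bound genes. The 5 sites are shown, with TATCGATA in capitals, on the strand of the gene.
eEF1gamma, chr3R:29220111-29220158 (dm6), plus strand: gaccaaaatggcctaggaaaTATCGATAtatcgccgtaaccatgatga
eIF1, chr3L:3223025-3223072 (dm6), plus strand: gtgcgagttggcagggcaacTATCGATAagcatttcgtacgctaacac
eIF3a, chr3R:4433906-4433953 (dm6), minus strand: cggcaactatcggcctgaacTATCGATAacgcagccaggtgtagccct
eIF4A, chr2L:5981692-5981739 (dm6), plus strand: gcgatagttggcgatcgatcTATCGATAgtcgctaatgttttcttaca
eIF2A, chr3L:21824865-21824894 (dm6), plus strand: ttactatcgctTATCGATAcaccgcgtaca

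The element lay 1 bp from the second summit of eIF4A, 12 bp from the summit of eIF2A, 21 bp from that of eIF3a, 25 bp from that of eEF1gamma and 52 bp from that of eIF1. At eIF3a and eEF1gamma it sat 35 and 37 bp upstream of the start site. At eIF1 it was 292 bp upstream of the gene's start.

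Sites described for the E(spl) proteins were looked for at the same summits. CACGTG was within 100 bp of the strongest summit of 1 bound gene, eEF2, at 86 bp from the summit (7.69%, against 5.87% of all bound genes). Counting every thresholded summit of a gene, the setting added later, brought in eIF4A, at 85 bp from its other summit. That gave 2 of 13 (15.4%) against 6.65% of all bound genes. CACGCG was found at none of the 13 (10.2% of all bound genes), and CAGCTG, the E box of proneural activators, at 1, eIF3h (17.6%). The other motifs searched, GAGAGAG, GGTCACACT and CAGGTAG, were not looked for as E(spl) sites. They were found at none of the strongest summits, against 8.89%, 2.66% and 1.57% of all bound genes. The CACGTG of eEF2 and of eIF4A are shown in capitals, each on the strand of its gene.
eEF2, chr2L:21682176-21682221 (dm6), minus strand: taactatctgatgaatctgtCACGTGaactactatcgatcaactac
eIF4A, chr2L:5981787-5981816 (dm6), plus strand: aatcagtagcagCACGTGtataaaaagtgc

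All motifs were read on both strands, and a match is a description of the letters, not of a factor's binding. With 13 summits, a share of 1 gene is 7.69%.

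**Figure D1:**
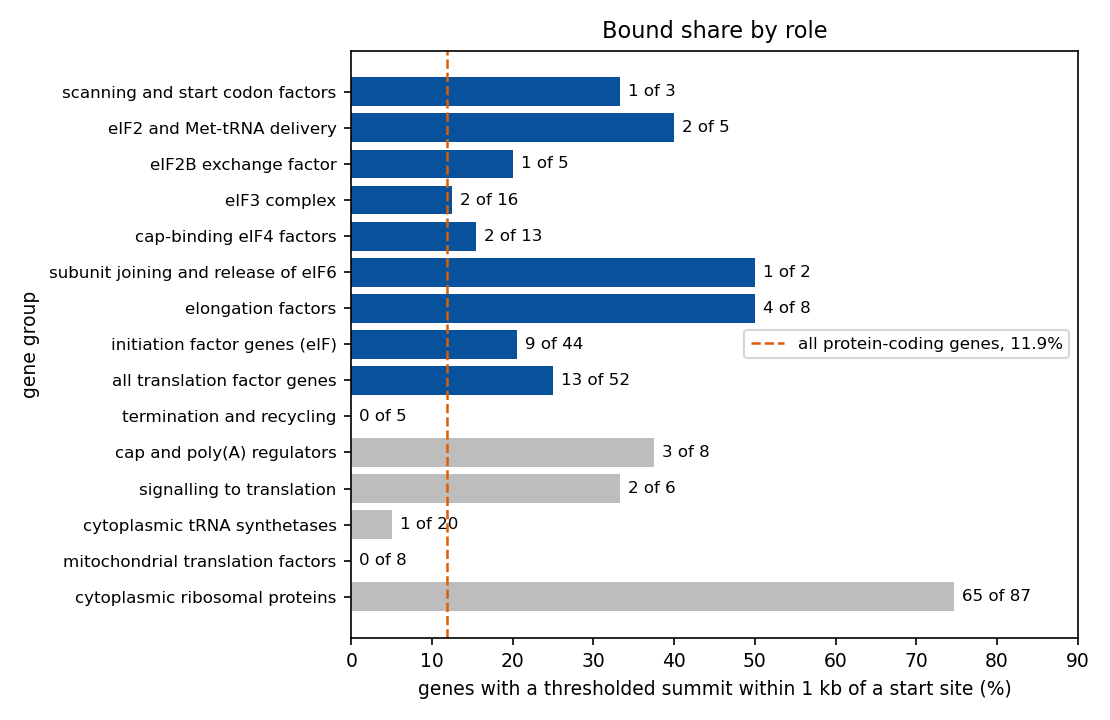
Share of bound genes, those with a thresholded summit up to 1 kb from a start (horizontal axis, percent), by role; blue bars are translation factor genes, grey bars other groups of the translation machinery, and the dashed line is the 11.9% of all protein-coding genes. Elongation factors stand at 4 of 8, the eIF3 complex at 2 of 16 lies near the line, and ribosomal protein genes at 65 of 87.

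The elongation factors were led by eEF1gamma, a subunit of the exchange factor that recharges eEF1A with GTP. Its signal was 302.4 in replicate 3 (rank 69), 288 in replicate 4 (rank 76) and 591.1 in the pooled list (rank 63), with an intergenic summit at 3R 29220160, 12 bp before the start. It is the strongest bound gene with no other protein-coding start within 1 kb of the summit. Next was eEF2, the factor that moves the ribosome by 1 codon, with 100.5 in replicate 3 (rank 978), 139.6 in replicate 4 (rank 412) and 233.9 pooled (rank 600), with the summit at 2L 21682113, in the 5' UTR 3 bp inside the start. Because the scale of the signal is not known, ranks were used to compare the lists.

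The gene for the main tRNA-delivering factor, eEF1alpha1, carried 3 thresholded summits, more than any other of the 52. The strongest, at 2R 11891018, had a signal of 50.64 in replicate 3 (rank 3936), 98.97 in replicate 4 (rank 877) and 153.8 pooled (rank 1380), so in replicate 3 it lay outside the 2487 strongest. It was 39 bp from the start of ERp60, a protein disulfide isomerase gene, and 117 bp from that of eEF1alpha1. The other summits, pooled ranks 1828 and 1980, were in an intron and in the 5' UTR of the gene; they ranked 2175 and 1023 in replicate 4, and 15558 and 7502 in replicate 3. In replicate 3 the strongest candidate within 1 kb of any of its starts, at rank 1310, lay 661 bp inside a start. So all 3 positions ranked higher in replicate 4.

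The 4th bound elongation factor gene, eEF5, encodes the protein that in yeast helps ribosomes through runs of proline and was formerly named eIF5A. It carried 2 thresholded summits. The stronger, at 2R 24057240, had a signal of 78.04 in replicate 3 (rank 1659), 70.28 in replicate 4 (rank 1784) and 149.2 pooled (rank 1477). It lay in a coding exon of CG13563, 103 bp from the start of ppk29 and 558 bp upstream of eEF5. The other, 13 bp inside eEF5, ranked 1951 pooled, 2867 in replicate 3 and 978 in replicate 4.

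The other elongation factor genes had no thresholded summit. eEF1delta missed the list narrowly, at pooled rank 2548 with a signal of 112.7, where the weakest thresholded peak had 114.4; it ranked 3968 in replicate 3 and 2391 in replicate 4. Its partner subunit gene eEF1beta stood at rank 5884, and that summit was 181 bp from Psi and 689 bp from eEF1beta. The selenocysteine factor gene eEFSec stood at 10088, with the summit 25 bp from Acox57D-p. For eEF1alpha2, the second gene of the tRNA-delivering factor, neither the pool nor replicate 3 listed a candidate within 1 kb, and replicate 4 listed one at rank 22868.

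**Figure D2:**
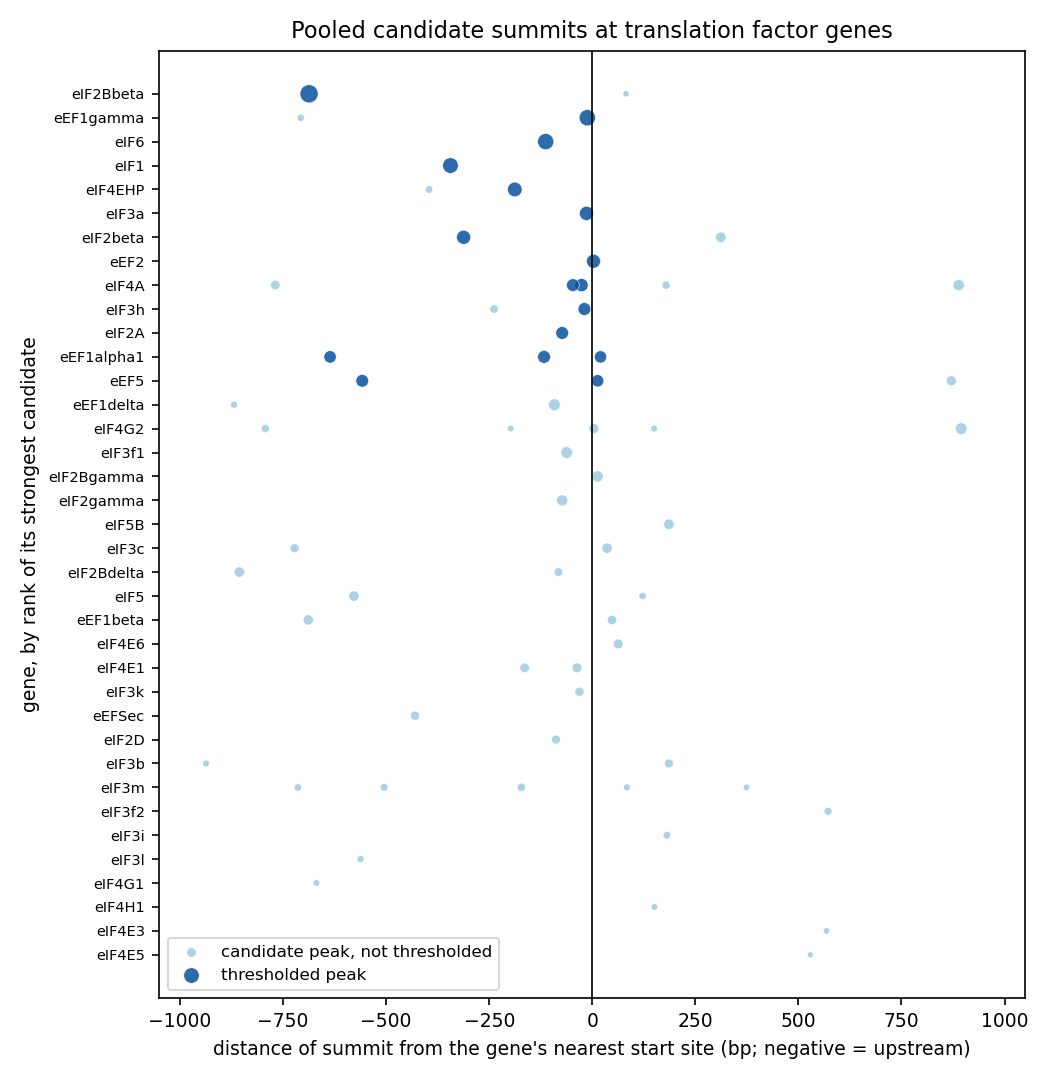
Pooled candidate summits within 1 kb of a start site for the 37 genes that have one, by distance from the gene's nearest start (horizontal axis, bp, negative upstream); dot area grows with log signal and dark dots are thresholded peaks. The strongest thresholded summit lies upstream of the nearest own start in 12 of the 13 bound genes (92.3%, against 75.7% of all bound genes). The distances are 12 to 687 bp, and in eEF2 the summit is 3 bp inside the start. At eIF2A, eIF3h and eIF4A the summit lies in the gene's own 5' UTR.

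Among factors that bring in the initiator tRNA and choose the start codon, the bound genes were eIF1, eIF2beta and eIF2A. The peak at eIF1, which encodes a guardian of start codon choice, had a signal of 198.3 in replicate 3 (rank 220), 254 in replicate 4 (rank 92) and 440.9 pooled (rank 133). Its summit, at 3L 3222997, was 344 bp upstream of eIF1 but 37 bp from the start of RpL28, a large-subunit ribosomal protein gene on the opposite strand, and is also the strongest summit of that gene. For eIF2beta, a subunit of the factor that carries methionyl-tRNA, the values were 116.8 in replicate 3 (rank 724), 109.7 in replicate 4 (rank 692) and 240.7 pooled (rank 554), with the summit at 3L 12527043, 312 bp upstream with no other coding start within 1 kb. The ranks of eIF2beta in the replicates were close together. For eIF2A, whose product in mammals can deliver initiator tRNA by another route, the signal was 87.57 in replicate 3 (rank 1304), 85.09 in replicate 4 (rank 1220) and 154.2 pooled (rank 1377), with the summit at 3L 21824892, in the 5' UTR.

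The other eIF2 subunit genes were not bound. eIF2gamma, the subunit that binds GTP, had a pooled candidate at rank 4047, 73 bp from its own start and 21 bp from that of Set. eIF2alpha, whose phosphorylation slows translation under stress, had no candidate within 1 kb in any list. eIF2D stood at 11113, eIF5, the activator of eIF2's GTPase, at 5688 with the summit 84 bp from the start of exd, and eIF1A had no pooled candidate.

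The exchange factor eIF2B, which recharges eIF2 with GTP, had 1 of 5 subunit genes bound. That gene, eIF2Bbeta, had the strongest peak of all 52, with a signal of 582.1 in replicate 3 (rank 8), 800.7 in replicate 4 (rank 4) and 1385 pooled (rank 7). The summit, at X 2703884, was in intergenic DNA 687 bp upstream of eIF2Bbeta and 32 bp from the start of Ugalt, a UDP-galactose transporter gene on the opposite strand, so it counts for eIF2Bbeta only through the 1 kb rule. A 500 bp limit removed it. Of the other subunit genes, eIF2Bgamma had a candidate at rank 3721 and eIF2Bdelta at rank 5672, the latter 856 bp from the gene, while eIF2Balpha and eIF2Bepsilon had none in the pool.

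The eIF3 complex, the large scaffold on the small ribosomal subunit, had 2 of 16 genes bound (12.5%), close to the 11.9% of all genes. For eIF3a, the scaffold's largest subunit, the signal was 139.3 in replicate 3 (rank 490), 120.6 in replicate 4 (rank 574) and 251.9 pooled (rank 513), with the summit at 3R 4433909, 14 bp upstream of its start and 56 bp from that of the divergent gene CG1074. For eIF3h, which encodes another subunit, it was 72.82 in replicate 3 (rank 1922), 92.58 in replicate 4 (rank 1009) and 155 pooled (rank 1354), with the summit at 2L 5052799, 19 bp upstream of a start and 44 bp from that of senju. Both bound eIF3 genes thus share their promoter region with a divergent neighbour. Of the rest, eIF3f1 came nearest at rank 2957, followed by eIF3c (5607), eIF3k (9746) and eIF3b (11566). eIF3m, eIF3f2, eIF3i and eIF3l lay between ranks 14013 and 21269, and eIF3d1, eIF3d2, eIF3e, eIF3g1, eIF3g2 and eIF3j had no pooled candidate.

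Among the eIF4 genes, which act at the mRNA cap, 2 of 13 were bound, eIF4EHP and eIF4A. The replicates differed at eIF4EHP, whose product binds the cap without recruiting the ribosome and represses translation of maternal mRNAs. Its peak had a signal of 258.4 in replicate 3 (rank 109) and 295.7 pooled (rank 359), but replicate 4 listed no candidate within 100 bp of the pooled summit. The strongest of replicate 4 within 1 kb ranked 3970, at 48 bp upstream of the start, where the pooled summit, at 3R 24109148, was 188 bp upstream of eIF4EHP and equally far from CG18428. So its place in the list rests on replicate 3: without that replicate eIF4EHP was not bound. The RNA helicase gene eIF4A had 2 thresholded summits at different start sites, 26 and 47 bp upstream of them. The first, at 2L 5982568, had a signal of 67.75 in replicate 3 (rank 2232), 108.1 in replicate 4 (rank 710) and 178.7 pooled (rank 1045). The second, at 2L 5981717, had 85.25 in replicate 3 (rank 1400), 70.81 in replicate 4 (rank 1756) and 153.3 pooled (rank 1397). The order of the summits of eIF4A thus differed between the replicates.

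The gene of the main cap-binding protein, eIF4E1, was not bound, with its best pooled candidate at rank 7577. Its relatives eIF4E3, eIF4E5 and eIF4E6 stood at 26202, 29596 and 7222, and eIF4E4 and eIF4E7 had no candidate in any list. The scaffold gene eIF4G1 stood at 24428. Its relative eIF4G2 ranked 2793 pooled, 2009 in replicate 3 and 2724 in replicate 4, with the summit 895 bp inside the gene's start and as far from that of CG33111. Another candidate brought eIF4G2 within the 2487 strongest of replicate 4 as well, at rank 2234. eIF4H1 stood at 25904, and eIF4B and eIF4H2 had no pooled candidate.

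Of the late-acting factors, eIF6, whose product keeps the large ribosomal subunit from joining too early, was bound. Its signal was 266.8 in replicate 3 (rank 100), 290.2 in replicate 4 (rank 73) and 555.1 pooled (rank 69), and its ranks were among the 100 strongest in each list. The summit, at 2R 23850414 (dm6), was 113 bp upstream of eIF6 and lay in an exon of the antisense gene asRNA:CR45928. The subunit-joining GTPase gene eIF5B was not bound, at rank 5323.

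**Figure D3:**
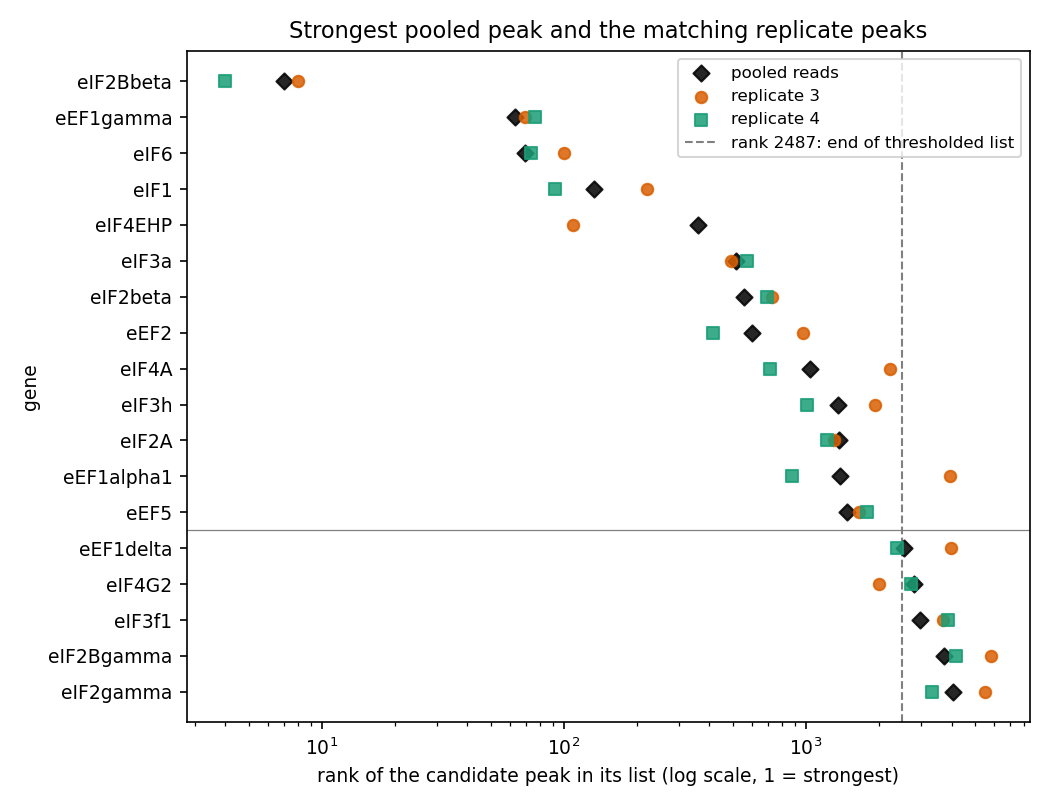
Rank of the strongest pooled peak within 1 kb of a start (diamonds) and of the candidate within 100 bp of it in replicate 3 (circles) and replicate 4 (squares), on a log axis, for the 13 bound genes and the 5 with the next highest pooled signal. The dashed line marks rank 2487; eEF1alpha1 lies beyond it in replicate 3, and eIF4EHP has no point for replicate 4.

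In replicate 3, all 13 bound genes had a candidate within 100 bp of the pooled summit, at a lowest, median and highest signal of 50.64, 116.8 and 582.1. In replicate 4, 12 had one, at 70.28, 115.2 and 800.7. For 11 of the 13 (84.6%) the strongest summit was among the 2487 strongest of both replicates, against 56.2% of all bound genes. The exceptions were eEF1alpha1 and eIF4EHP. The 13 also ranked higher in the pooled list, at a median of 554 against 1232, and genes of like rank were not compared. Over the 12 genes present in both, the ranks had a Spearman rho of 0.846, given as a description since all points come from the same pair of libraries and were selected on pooled signal. Taking instead the 2487 strongest candidates of each replicate, 14 of 52 genes (26.9%) had a summit within 1 kb in replicate 3, against 12.2% of all genes, and 14 in replicate 4, against 11.5%. Replicate 3 alone added eIF4G2, and replicate 4 alone added eEF1delta and eIF4G2 and lost eIF4EHP.

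The position of the summits varied among the bound genes. The median distance from the strongest summit to the gene's own nearest start was 113 bp, against 147 bp over all bound genes, and 9 of 13 were within 200 bp (69.2% against 58.4%). By annotation, 7 of these summits were intergenic, 4 in 5' UTRs, 1 in a coding exon and 1 in an exon of a non-coding gene. For 4 of them, at eIF2Bbeta, eIF1, eEF1alpha1 and eEF5, another protein-coding gene's start was closer than the named gene's own. In the other 9 (69.2%) no other protein-coding start was closer, against 74% of all bound genes. Requiring the nearest protein-coding start to be the gene's own kept 11 of 52 genes (21.2%), against 8.96% of all genes; eIF2Bbeta and eIF1 were lost, while eEF1alpha1 and eEF5 stayed through their other summits.

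A close neighbour was present for many translation factor genes: 28 of 52 (53.8%) had another protein-coding start within 1 kb of one of theirs, against 42.9% of all genes. Of those 28, 9 were bound (32.1%, against 16.6% of all genes with a neighbour). Of the 24 without, 4 were bound (16.7%, against 8.32%). The part of gene spacing in the counts was not tested. The median number of start sites was 1 in both the translation factor genes and all genes, and the median span was 1955 bp against 2166 bp.

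Of the 39 genes with no thresholded summit, 24 had a weaker pooled candidate, with signals from 28.69 to 112.7 and a median rank of 8662. Both replicates had a candidate within 100 bp of it for 10 of these, and neither did for 2, eIF2Bdelta and eIF4E6. The remaining 15 had no pooled candidate, and 8 of the 52 had none in any list: eIF2Bepsilon, eIF2alpha, eIF3d2, eIF3g1, eIF3g2, eIF4B, eIF4E4 and eIF4E7. Each list stops at 30000 peaks, so a weaker peak would not be seen.

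TATCGATA was also present in the promoters of translation factor genes that were not bound. In the window from 250 bp before to 50 bp after the 5'-most start, 14 of 52 genes had it (26.9%), against 9.37% of all protein-coding promoters and 29.9% of ribosomal protein promoters. Of those 14, 5 were bound: eEF1gamma, eIF2Bbeta, eIF3a, eIF4A and eIF6. The 9 others were eEF1delta, eIF1A, eIF2alpha, eIF2gamma, eIF3c, eIF3f1, eIF3l, eIF4B and eIF4E6. Of all genes with TATCGATA in this window 15.5% were bound, and 11.5% of those without. Of the 38 translation factor genes without it in this window 8 were bound (21.1%). They include eIF1 and eIF2A, whose TATCGATA near the summit, shown above, lay outside this window. At eIF2Bbeta the element was 32 bp inside the gene's start, while the thresholded summit was 687 bp upstream of that start. CACGTG was in the promoters of 4 of the 52 genes (7.69%, against 4.24%), 3 of them bound: eEF2, eIF2A and eIF4A. Of all genes with CACGTG in this window 17.6% were bound, against 11.6% of those without, and of the 48 translation factor genes without it 10 were bound (20.8%).

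A polypyrimidine initiator, in which transcription begins at a C within a run of pyrimidines, is known for fly ribosomal protein genes. CTTT on the gene's strand with its C within 5 bases of an annotated start was found in 7 of the 52 genes (13.5%), against 8.07% of all genes and 65.5% of ribosomal protein genes. Of those 7, 4 were bound: eEF1alpha1, eEF2, eEF5 and eIF4A. Of all genes with such a start 19.3% were bound, against 11.2% of those without, and of the 45 translation factor genes without one 9 were bound (20%). The count depended on the window: within 2 bases it was 1 gene (1.92%, against 3.28% of all genes) and within 10 bases 15 genes (28.8% against 14.9%). Those of eEF2 and eIF4A, with the C 4 bases inside the start, are shown with CTTT in capitals.
eEF2, chr2L:21682102-21682131 (dm6), minus strand: gtcgctgcagcgcctcgctCTTTcctgtcg
eIF4A, chr2L:5981749-5981778 (dm6), plus strand: cttttgcaagatggagcctCTTTtgcttgg

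For other parts of the translation machinery the same counts are given, to be read against the 11.9% of all genes, and no difference between the groups was tested. Of 87 cytoplasmic ribosomal protein genes 65 were bound (74.7%). None of 5 termination and recycling genes (eRF1, eRF3, pix, DENR, MCTS1) and none of 8 mitochondrial translation factor genes was bound. Of 20 cytoplasmic tRNA synthetase genes only GluProRS was, at rank 1930 pooled and 4504 in replicate 4. Within 2 kb of a start 4 of the 20 were bound, against 15% of all genes at that distance. Of 8 regulators that act at the cap or the poly(A) tail 3 were bound. These were larp (rank 295), Thor, the 4E-BP that sequesters eIF4E (rank 648), and pAbp, the poly(A)-binding protein (rank 1890). The pAbp summit was 594 bp from its start and ranked 3896 in replicate 3. Of 6 signalling genes upstream of translation 2 were bound: Lk6, the kinase of eIF4E, at rank 38 and 971 bp from its start, and Gcn2, a kinase of eIF2alpha, at rank 414.

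**Figure D4:**
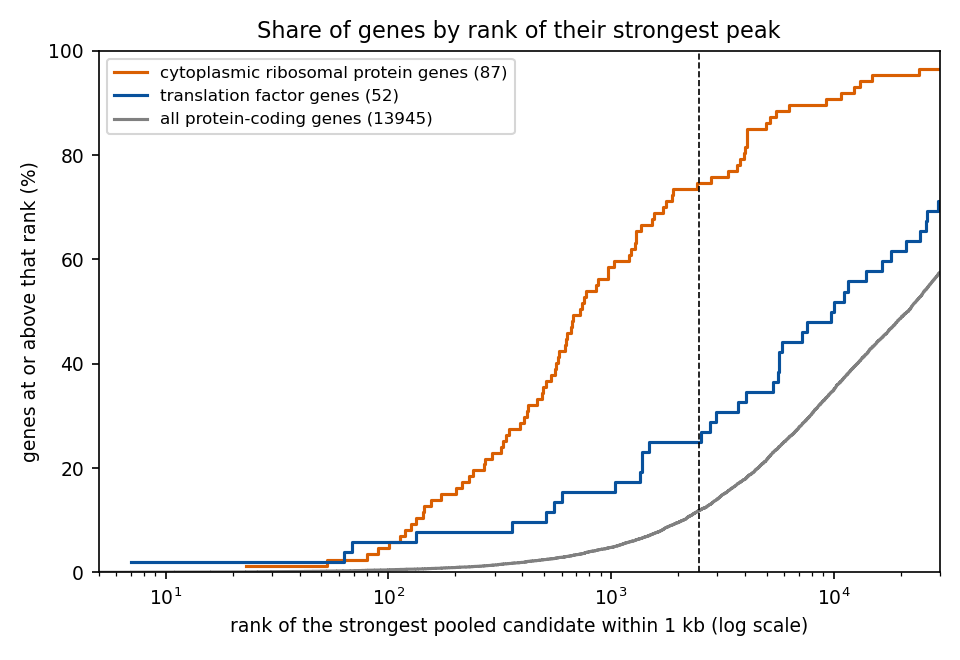
Share of genes (vertical axis, percent) whose strongest pooled candidate within 1 kb ranks at or above the value on the log horizontal axis, for 87 ribosomal protein genes, 52 translation factor genes and 13945 protein-coding genes; the dashed line is rank 2487. At rank 500 the shares are 35.6%, 9.62% and 2.44%, and at rank 2487 they are 74.7%, 25% and 11.9%.

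The gap between translation factor and ribosomal protein genes lay below the 100 strongest peaks. Among the 100 strongest pooled candidates, 3 of 52 translation factor genes (5.77%) and 4 of 87 ribosomal protein genes (4.6%) had a summit within 1 kb, against 0.495% of all genes. Among the 1000 strongest these were 8 (15.4%), 51 (58.6%) and 4.8%. The counts among the 100 strongest are small. The 3 translation factor genes there include eIF2Bbeta, whose summit was 32 bp from Ugalt and 687 bp from eIF2Bbeta.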

How the data were processed

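The values are deposited peak lists from 2 replicates: 30000 candidate peaks each for replicate 3, replicate 4 and the pooled reads, and 2487 thresholded peaks derived from those lists by an irreproducible discovery rate procedure, on dm6, per the text files deposited with them. The signal per peak and the −log10 q value are as deposited by the authors, relative to a control alignment; all 2487 thresholded peaks had the same, highest −log10 q, so only signal was used to rank. The sources used here give no aligner, peak caller, signal scale or depth. Chromatin was sonicated to 200 to 800 bp, per the labels.

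Summits (peak start plus the deposited offset) are given 1-based. Starts are those of all transcripts in Ensembl release 115 on 2L, 2R, 3L, 3R, 4 and X; sequence is RefSeq's copy of the same assembly, whose arm lengths contain every peak. The thresholded list equalled the 2487 pooled candidates of highest signal. Summits of different lists were matched within 100 bp; motif windows span 201 bp. Members and lists were chosen with earlier results of these data known, and no p-value was computed. Genes named are all bound members, the 5 unbound ones of highest pooled signal with values, and up to 3 bound genes per related list; the further values of other unbound members were added so that each is accounted for. Of the related symbols, Tor, eEF2K, PheRS-alpha, mEFG2 and mtEF4 were not matched, and 4EHP is a member. Ribosomal protein genes were taken by symbol. Summit assignment was checked on planted positions. Python 3.11.15, numpy 2.4.6, pandas 2.3.3, scipy 1.17.1 and matplotlib 3.10.9 were used.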

Additional observations from a re-analysis of the deposited data

How the results depend on the processing

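The 13 bound genes became 9 with the 1243 strongest thresholded peaks (17.3% of the translation factor genes, against 5.99% of all genes). The 9 were all among the 13. With start sites within 500 bp there were 12 (23.1% against 10%), and within 2 kb 15 (28.8% against 15%). At the first setting the shares were 25% and 11.9%. Leaving out either replicate gave 14 (26.9%), against 11.5% of all genes without replicate 3 and 12.2% without replicate 4. Counting start sites of coding transcripts only changed nothing. By role, the stronger peaks left 1 bound gene for eIF2 and initiator tRNA delivery, 1 for eIF3 and 2 for elongation. A 500 bp limit left 0 for eIF2B and 2 kb gave 2. Requiring the nearest coding start left 0 for eIF2B and 0 for the scanning factors. CACGTG was at 0 bound genes within 50 bp of the strongest summit, 2 within 150 bp and 2 over all summits of a gene. Counting all summits was a setting added after the data had been seen, for every motif. It also gave 5 for TATCGATA and 1 for GAGAGAG. The proneural E box CAGCTG was at 0 and 2 within 50 and 150 bp. CTTT at starts fell to 1 gene within 2 bases, below the share of all genes, and rose to 15 within 10 bases. Of signalling genes 1 was bound within 500 bp, and of cap and poly(A) regulators 2, where 10% of all genes were. Of tRNA synthetases 4 were bound within 2 kb, where 15% of all genes were. Of 95 alternatives, 78 gave a count within 1.5 times the first. Many of these counts were 0 or a few genes under both settings, so the tally says little about how stable they are. The causes were not tested. No paired analysis was possible because there is 1 group of 2 replicates. Depth is unknown, and lists end at 30000 peaks.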
